A study of Mus musculus with 23 samples.

Results

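RNA sequencing of 14 mouse spleens with wild-type-derived T-cell acute lymphoblastic leukemia (WT T-ALL) was examined by how much neutrophil RNA each spleen held. The libraries were ranked by the mean log2 value of 5 neutrophil genes, S100a8, S100a9, Ltf, Camp and Ngp, here called the neutrophil score. The 7 libraries with the highest score are called neutrophil-rich and the 7 with the lowest neutrophil-poor, 14 of the 23 libraries in all. The groups were therefore chosen on measured values and are not groups of the study, which gave all 14 spleens the same label. A p-value below says how closely the level of a gene went with these 5 genes over 14 animals and is not the effect of a condition.

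Neutrophils are short-lived phagocytes that mature in the bone marrow and, in mice, also in the spleen. They fill their granules in a fixed order as they mature. Primary (azurophil) granules carry myeloperoxidase and serine proteases and are made at the promyelocyte stage, secondary granules carry lactoferrin, cathelicidin and lipocalin and are made next, and the receptors for chemoattractants appear last. S100a8 and S100a9 encode the calprotectin subunits, an abundant cytosolic protein pair of neutrophils and monocytes. The spleen of a mouse with T-ALL is filled by lymphoblasts but keeps host myeloid and erythroid cells.

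All 14 spleens came from BALB/c hosts of genotype Rag2-/-Il2rg-/- into which thymus of newborn wild-type mice had been placed under the kidney capsule. By the study's methods the donors were B6.Ly5.1 (CD45.1). The labels give the tissue as spleen, and whether its cells were fractionated before RNA extraction is not given in the sources used here. Each library was 1 animal and 1 separate leukemia, so the libraries differ in their tumor as well as in their host cells. The host can make no T, B or NK cells, whereas its neutrophils, macrophages and red cell precursors are intact. The other libraries were 6 thymus controls of normal C57BL/6 mice and 3 spleens with T-ALL from Notch3 KO thymus in the same BALB/c host strain, and their values are given only beside those of WT T-ALL. In bulk RNA, fewer cells of a type and less RNA per cell cannot be told apart, and each value is relative to the rest of the RNA in its library.

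The label of leukemic spleen was set against marker genes. The T-cell identity genes were all measured, and the mean of the list lay between 5.75 and 7.25 on the log2 scale in the 14 libraries. The B-cell genes Ms4a1 and Pax5 stood at or near 0, with Ms4a1 at 0.0453 or less in each of the 14, whereas Cd79b, a chain of the B-cell receptor complex, was at 0.38 to 2.71 and reached 1 scaled RPKM in at least 3 libraries. The deposited values are log2(scaled RPKM + 1), with RPKM scaled by the authors to the same upper quartile in each library (a scaled RPKM of 10). All levels below are on that scale unless scaled RPKM is named, and differences are on the same scale, on which the added 1 understates the change of low genes. Read numbers of the libraries are not in the table, so the depth of a single library is unknown.

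The score ran from 6.12 to 13.30. WT T-ALL 110 stood at 13.30 and WT T-ALL 108 at 11.08, followed by WT T-ALL 3 at 9.54, 126 at 9.48, 128 at 9.20, 14 at 9.04 and 202 at 8.23. On the neutrophil-poor side WT T-ALL 111 stood at 7.62, 48 at 7.59, 7 at 7.48, 36 at 7.41, 120 at 7.10, 4 at 6.54 and 5 at 6.12. The members on either side of the line were WT T-ALL 202 and WT T-ALL 111, a gap of 0.60. Libraries 110 and 108 stood apart from the other 12, and the 5 markers made up 10.6% of the summed scaled RPKM of library 110 and 2.61% of that of 108, against at most 0.901% in the others. Most counts of called genes and most Pearson correlations over the 14 libraries are therefore also given without these 2, while rho is given over 14 only.

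Among the markers, S100a9 had the highest level per transcript length, with a mean of 8272 scaled RPKM in the neutrophil-rich and 558 in the neutrophil-poor libraries. S100a8 was at 14.71 in library 110, 12.54 in 108 and 9.74 to 11.02 in the other 5 neutrophil-rich libraries, and at 8.10 to 9.56 in the neutrophil-poor ones. Ltf, which encodes lactoferrin, ranged from 6.40 to 11.18 in the rich and from 3.66 to 5.88 in the poor group. Camp, the gene of the cathelicidin peptide, ranged from 6.52 to 12.10 and from 4.17 to 6.73, and was the marker of the 5 whose groups overlapped. Ngp, neutrophilic granule protein, ranged from 8.46 to 13.23 and from 6.28 to 7.82. These values chose the groups and are given as a description.

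**Figure D1:**
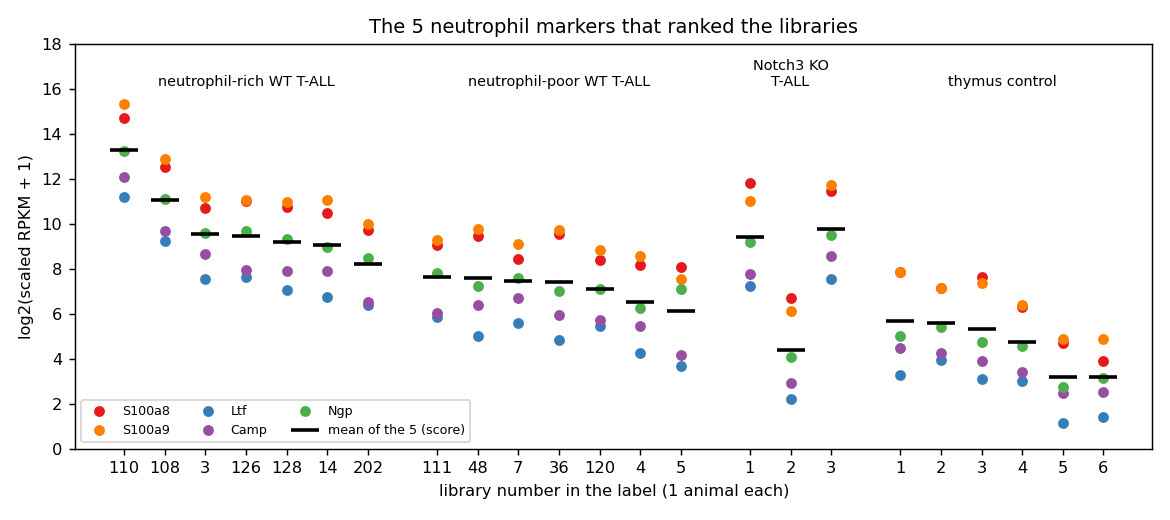
Levels of the 5 marker genes (points) and their mean, the neutrophil score (black bar), in log2(scaled RPKM + 1) for each library, 1 animal each, ordered by score within WT T-ALL. Library 110 (score 13.30) and 108 (11.08) stand above the other WT T-ALL libraries (6.12 to 9.54), and Notch3 KO T-ALL 2 (4.41) lies among the thymus controls (3.18 to 5.70).

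The 250 bases before the transcription start of 5 granule genes and of S100a8, a cytosolic marker of the score, are shown because primary and secondary granule genes parted in library 3, as described further on, while both went with the score over the 14 libraries. They were read from RefSeq (GRCm38.p6, the build with mm10 coordinates), run 5′ to 3′ on the strand of the gene and end at the base before the start. Capitals mark the letters TTNNGNAA, the core of C/EBP sites, and GAGGAAGT, the core of PU.1 sites, on either strand.
Mpo, chr11:87793534-87793783, plus strand: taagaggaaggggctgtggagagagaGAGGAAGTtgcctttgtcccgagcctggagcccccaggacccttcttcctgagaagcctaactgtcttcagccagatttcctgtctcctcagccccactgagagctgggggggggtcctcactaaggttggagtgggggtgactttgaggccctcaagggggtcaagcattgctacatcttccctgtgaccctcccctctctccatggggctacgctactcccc
Elane, chr10:79886062-79886311, plus strand: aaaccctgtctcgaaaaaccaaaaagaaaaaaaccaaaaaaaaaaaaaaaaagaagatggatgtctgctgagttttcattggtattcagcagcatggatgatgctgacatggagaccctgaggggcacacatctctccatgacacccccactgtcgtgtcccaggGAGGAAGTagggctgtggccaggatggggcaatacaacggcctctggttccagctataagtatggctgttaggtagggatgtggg
Prtn3, chr10:79879417-79879666, plus strand: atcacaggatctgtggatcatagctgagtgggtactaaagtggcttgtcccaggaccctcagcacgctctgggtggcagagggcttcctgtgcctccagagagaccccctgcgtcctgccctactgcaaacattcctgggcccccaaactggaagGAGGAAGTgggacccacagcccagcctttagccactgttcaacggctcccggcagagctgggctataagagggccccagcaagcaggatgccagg
S100a8, chr3:90668821-90669070, plus strand: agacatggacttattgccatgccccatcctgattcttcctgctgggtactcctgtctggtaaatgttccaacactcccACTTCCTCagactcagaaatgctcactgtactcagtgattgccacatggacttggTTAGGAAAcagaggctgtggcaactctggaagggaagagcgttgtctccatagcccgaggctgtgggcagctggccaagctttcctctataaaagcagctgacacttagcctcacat
Ngp, chr9:110419558-110419807, plus strand: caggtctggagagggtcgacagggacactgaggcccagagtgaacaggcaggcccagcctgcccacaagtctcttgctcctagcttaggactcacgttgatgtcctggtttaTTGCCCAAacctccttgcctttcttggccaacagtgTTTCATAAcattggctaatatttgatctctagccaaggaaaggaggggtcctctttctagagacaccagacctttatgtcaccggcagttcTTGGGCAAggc
Ltf, chr9:111019042-111019291, plus strand: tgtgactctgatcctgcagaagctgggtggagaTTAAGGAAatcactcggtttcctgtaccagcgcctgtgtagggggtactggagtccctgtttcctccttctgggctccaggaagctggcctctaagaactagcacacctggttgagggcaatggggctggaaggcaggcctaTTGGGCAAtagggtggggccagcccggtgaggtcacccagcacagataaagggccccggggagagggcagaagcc
The letters GAGGAAGT were found in the windows of Mpo, Elane and Prtn3, 3 of the 5 primary granule genes, against 2.79% of the 27025 genes with a window of this length in the table (2.44% of the 32851 windows). The letters TTNNGNAA were found in 1 of the 5. In the secondary and tertiary granule list 7 of the 9 genes with a window held TTNNGNAA and 2 held GAGGAAGT. In the mature neutrophil list 8 of the 13 genes held TTNNGNAA and 1 held GAGGAAGT. Of all genes with a window, 40.3% held TTNNGNAA in at least 1 (36.8% of all windows). Ngp held TTNNGNAA at 3 places and Ltf at 2, and the window of Camp held neither set of letters. The 2 sets of letters do not overlap in these windows. A match of letters is a description of the sequence and does not show that a factor binds there.

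Across all other genes, the split by itself called nothing. Of 11471 genes with at least 1 scaled RPKM in at least 3 of the 14 libraries, 0 passed an adjusted p of 0.05 in limma (0.0%), the smallest adjusted p was 0.0667, and 935 had an unadjusted p under 0.05, of which 728 were higher in the neutrophil-rich group and 207 lower. Changes of offset, filter, normalization, covariate or trend in limma gave the split between 0 and 7 calls, and leaving out 1 library gave 12 calls without library 110, 7 without library 3, 2 without library 111 and 0 without any other, all higher in the rich group. With the score as a continuous term, limma called 707 genes that rose with the score (6.16%) and 54 that fell (0.471%). The median slope over all tested genes was -0.0155 per log2 unit of score. Without libraries 108 and 110 the continuous fit called 37 of 11238 genes, all of them among the 707, and none that fell (907 at an unadjusted p under 0.05). Of the 602 rising genes that could be tested in the 12 libraries, 598 kept a positive slope, and all 54 falling genes kept a negative one. The number of calls thus rested on 2 libraries, while 4 of the tested slopes changed sign without them. The rest of the 707 did not pass the filter without libraries 108 and 110. They entered the test, and the 6.16%, through these libraries, and their slopes could not be checked.

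**Figure D2:**
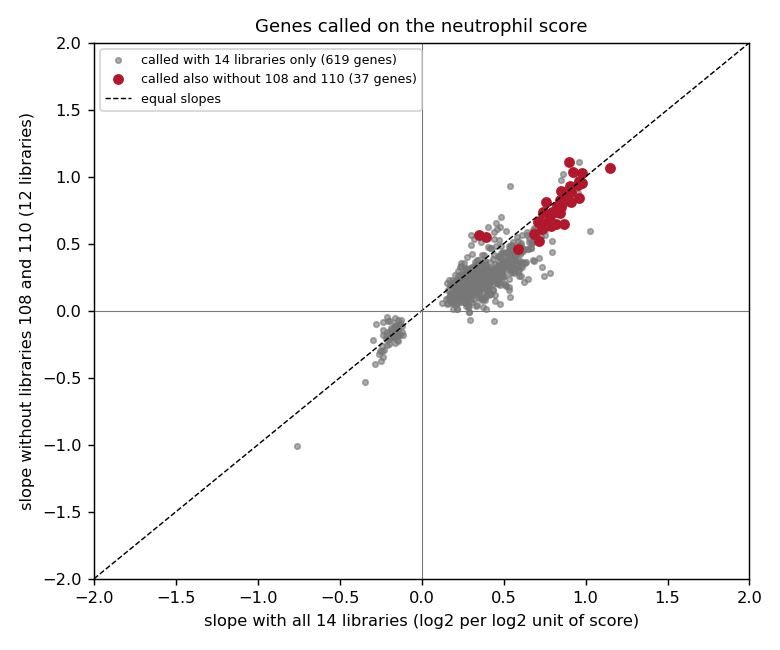
Slope on the neutrophil score of each gene called with 14 libraries (x axis) against its slope without libraries 108 and 110 (y axis), both in log2 units per log2 unit of score. The 37 genes called in both fits (red) had slopes with 14 libraries from 0.35 (Mpzl1) upward, and 525 of the 602 rising genes that could be tested in both had a smaller slope without the 2 libraries.

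In 42 genes every neutrophil-rich library lay above every neutrophil-poor one (0.366%), and in 2 genes, Fip1l1 and Ankrd17, every rich library lay below (0.0174%). Of the 42, 10 belonged to the gene lists used here and 32 did not, and 38 were also among the 707. The lists were the 5 of neutrophil genes described next and 18 of other cell types and programs. The ranking was made with neutrophil genes, so the values of the other neutrophil genes are a description and carry no test of their own.

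The primary granule genes had the largest median difference of the 23 lists, and 1 library broke the order. Elane, neutrophil elastase, was at 8.50 in library 110, 7.44 in 108, 6.58 in 126, 6.38 in 128, 6.03 in 14 and 5.39 in 202, but at 3.51 in library 3. In the neutrophil-poor libraries it was at 2.46 to 4.09, so that library 3 lay inside the range of the poor group although its score ranked 3 of 14. Mpo, the peroxidase of these granules, had the same order, with 7.98 in library 110, 7.46 in 108, 4.95 to 6.66 in 126, 128, 14 and 202, and 3.64 in library 3, against 2.45 to 4.30 in the poor group. Ctsg, cathepsin G, was at 2.20 in library 3, below the 2.60, 3.73 and 2.39 of the poor libraries 111, 48 and 36. Ms4a3, a membrane protein of granulocyte and monocyte progenitors, was at 2.53 there, against 1.10 to 3.24 in the poor group. Prtn3, proteinase 3, was the gene of the list without overlap, at 3.87 to 7.77 in the rich and 2.06 to 3.73 in the poor libraries. Of the 5 genes, 5 were called rising with the score, beside 6.16% of all genes, and 1, Prtn3, also without libraries 108 and 110. Their median difference between rich and poor was 2.95, beside -0.00409 over all tested genes.

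Ltf, Camp and Ngp, 3 of the 5 genes of the score, are themselves secondary granule genes, and the primary granule list holds none of the 5. The other 7 secondary and tertiary granule genes had a median r of 0.95 with the score and the primary granule genes one of 0.89, and this order is therefore not independent of the ranking. The r of the 2 list means was 0.99 and 0.90 in the same order, and 0.97 and 0.81 without libraries 108 and 110. Lcn2, lipocalin-2, an iron-siderophore binder (chr2:32384637-32387739), was at 11.33 in library 110, 9.15 in 108, 7.60 in 126, 7.38 in 128, 7.17 in 14, 7.12 in library 3 and 6.53 in 202. In the poor group it was at 5.91 in library 111, 5.24 to 5.51 in 36, 7, 48 and 120, and below 5 in 5 (4.60) and 4 (4.26). The groups did not overlap, and Lcn2 had the highest correlation with the score of all tested genes (r = 0.99, rho = 0.96, r = 0.97 without 108 and 110). Chil3, a chitinase-like protein, had the largest slope of all rising genes, 1.15 per log2 unit of score, with 11.73 in library 110 and 2.73 in library 4. Cd177, a surface partner of proteinase 3, was at 3.80 to 8.60 against 1.99 to 3.47. The collagenase Mmp8 and the gelatinase Mmp9 overlapped between the groups, and Mmp9 was at 4.50 in library 3, above the 4.36 of library 108. Of the 7 genes of this list that were not used for the ranking, 7 were called rising with the score, beside 6.16% of all genes, 4 of them also without libraries 108 and 110, and the median difference was 2.50. Of these 7, Itgb2l stayed under 1 scaled RPKM in each poor library and entered the test through the rich group.

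Genes of mature neutrophils were lower in level and less steep, on a scale where the added 1 understates the change of low genes. Ly6g, the surface antigen used to define mouse neutrophils, was at 8.38 in library 110, 6.17 in 108, 4.97 in library 3, 3.27 to 3.90 in the other rich libraries and 1.42 to 3.23 in the poor ones. Here library 3 had the same rank as by the score. Fpr2, a receptor for formylated peptides, ranged from 3.08 to 7.51 and from 1.16 to 3.21. Retnlg, a resistin-like protein of neutrophils, ranged from 3.75 to 8.96 and from 2.52 to 4.48. Cxcr2, the receptor for neutrophil chemokines, was at 5.00 in library 110, at 1.33 to 2.38 in the other rich libraries and at 0.46 to 1.90 in the poor ones. Csf3r, the receptor for granulocyte colony-stimulating factor, was at 3.67 in the poor library 7, above 6 of the 7 rich libraries, and Il1b was at 2.67 there. All 13 genes of the list were called rising with the score, beside 6.16% of all genes, and the median difference was 1.25. Of the 10 that could be tested without 108 and 110, 3 were called there. Mmp25 and Trem1 stayed under 1 scaled RPKM in each poor library and entered the test through the rich group.

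**Figure D3:**
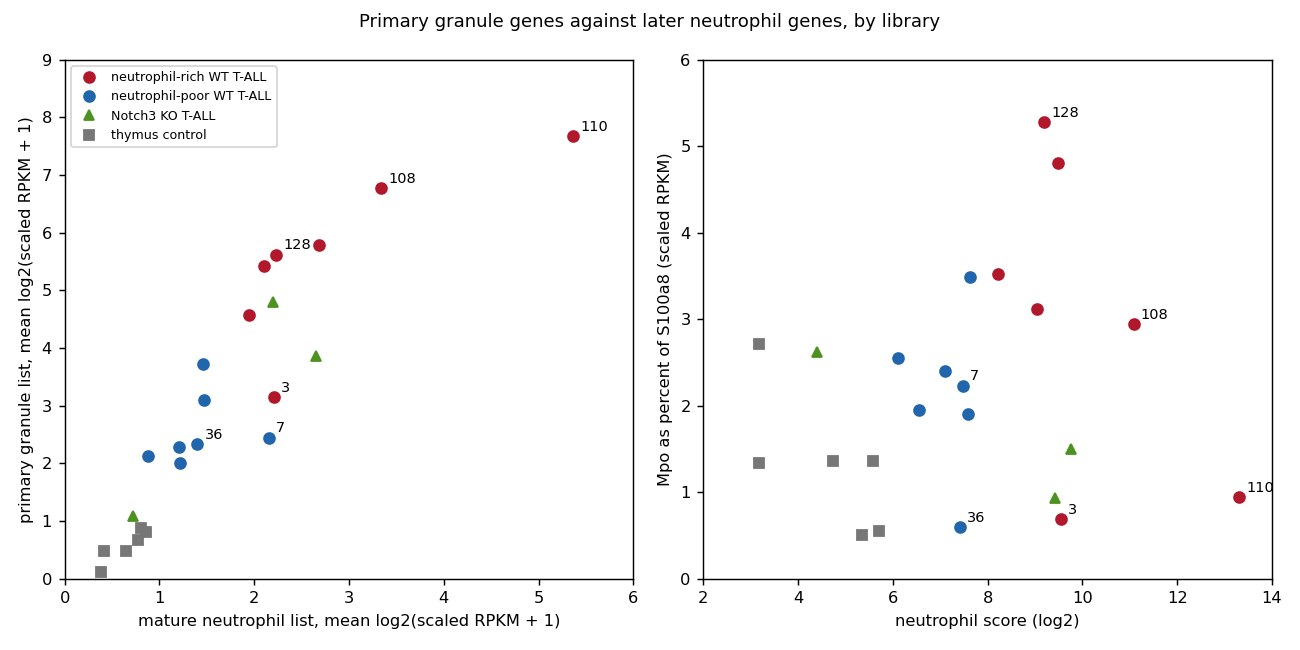
Left, mean level of the 5 primary granule genes against that of the 13 mature neutrophil genes in each library, both as mean log2(scaled RPKM + 1). Right, Mpo as percent of S100a8 in scaled RPKM against the neutrophil score. WT T-ALL 3 has the lowest primary granule mean of the rich group (3.15, the others 4.58 to 7.67) at a mature neutrophil mean of 2.20, and of the WT T-ALL libraries 110, 3 and 36 lie lowest on the right (0.596% to 0.942%).

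The balance of granule classes was compared within a library, per transcript length. S100a8 is one of the 5 genes of the score, so that a share of S100a8 is not independent of the ranking and is given as a description. Mpo amounted to 5.28% of the scaled RPKM of S100a8 in library 128, 4.81% in 126, 3.52% in 202, 3.12% in 14 and 2.94% in 108. In libraries 110 and 3 it amounted to 0.942% and 0.690%. The neutrophil-poor libraries lay between 0.596% (library 36) and 3.49% (library 111), inside the range of the rich group except at its lower end. Elane amounted to 4.43% to 4.83% in 126, 128, 14 and 202, 2.91% in 108, 1.35% in 110 and 0.623% in library 3, against 0.638% to 2.24% in the poor group. The share was above that of every poor library in 5 of the 7 rich libraries for Elane, in 3 for Mpo and in 4 for Prtn3.

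Cebpe, the C/EBP factor required for secondary granules (chr14:54710363-54712174), was at 6.76 in library 110, 4.39 in 108, 3.67 in 126, 3.12 in library 3, 2.85 in 128, 2.50 in 14 and 2.26 in 202, and at 0.28 to 1.61 in the poor group. It was among the 5 genes with the highest correlation (r = 0.99, rho = 0.99, r = 0.97 without 108 and 110). Cebpa and Cebpd were at 0.82 to 3.97 and 1.25 to 4.53 in the rich libraries and overlapped with the poor group. Spi1, which encodes PU.1, was at 2.80 to 6.49 against 1.38 to 3.73. Gfi1, a repressor that acts in granulocytes and in T-cell precursors alike, did not go with the score: it was at 4.26 to 4.84 in the rich and 4.30 to 5.76 in the poor group, with a slope of -0.05 ± 0.05 (SE). In the list of transcription factors of the lineage 4 of 5 genes were called rising, beside 6.16% of all genes, and 1, Cebpe, also without libraries 108 and 110.

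Of the phagocyte NADPH oxidase, which makes superoxide, the subunits Cybb, Ncf1, Ncf4 and Cyba were called rising. Cybb, the catalytic membrane subunit, was at 3.96 to 8.25 in the rich and 2.09 to 3.66 in the poor libraries. Ncf1, the p47 organizer in the cytosol, was at 3.55 to 8.18 and 2.00 to 3.49, so that neither gene overlapped between the groups. Ncf4, a further cytosolic subunit, reached 4.62 in the poor library 7. Cyba, the partner of Cybb that T cells also express, moved least, at 6.06 to 8.48 against 5.71 to 6.56. Cybb and Ncf1 were called also without libraries 108 and 110. In all, 34 of the 35 tested neutrophil genes were called rising, beside 6.16% of all genes, and 11 of the 32 that could be tested without the 2 libraries were called there. The 35 include 3 genes that entered the test through the rich group alone.

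Of the 10 growth factors and chemoattractants that make or recruit neutrophils, 2 passed the filter on low values, Tnf and Il1a, and neither was called, beside 6.16% of all genes, which says little of 2 genes. Csf3, Cxcl1 and Cxcl2 averaged at most 0.064 in either group, and Il17a was listed at 0 in all 14 libraries. Library 110 was the exception for Il6, at 2.23 against 0.59 in 108 and at most 0.18 in the other 12, and for Csf1, at 2.74 against 1.02 in 108 and at most 0.77 in the others. These 2 genes did not pass the filter, and each value rests on 1 library.

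Outside the lists, 10 genes were named by rule as those with the largest differences among the genes whose groups did not overlap, so the lack of overlap is not a result about them. Hp, haptoglobin, was at 4.89 to 8.74 in the rich and 2.01 to 4.30 in the poor group (difference 2.81 ± 0.54, SE). Serpinb1a, an inhibitor of neutrophil serine proteases, differed by 2.80, Wfdc21 by 2.78, Clec12a, an inhibitory receptor of myeloid cells, by 2.76, Fcnb, a ficolin, by 2.70, Ifitm6 by 2.67, and Anxa1 by 2.58. Trem3, Anxa3 and Clec4a2 differed by 2.55, 2.44 and 2.38. None was called by the split, where limma's adjusted p ran from 0.0737 (Fcnb) to 0.196 (Clec4a2). Wfdc21, Anxa1 and Trem3 were, beside Lcn2 and Cebpe, the genes with the highest correlation with the score (r = 0.99 each, and 0.96 to 0.97 without 108 and 110). Clec12a and Wfdc21 were at 7.66 and 9.29 in library 110 and at 1.51 and 1.91 in library 5, the ends of the ranking.

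**Figure D4:**
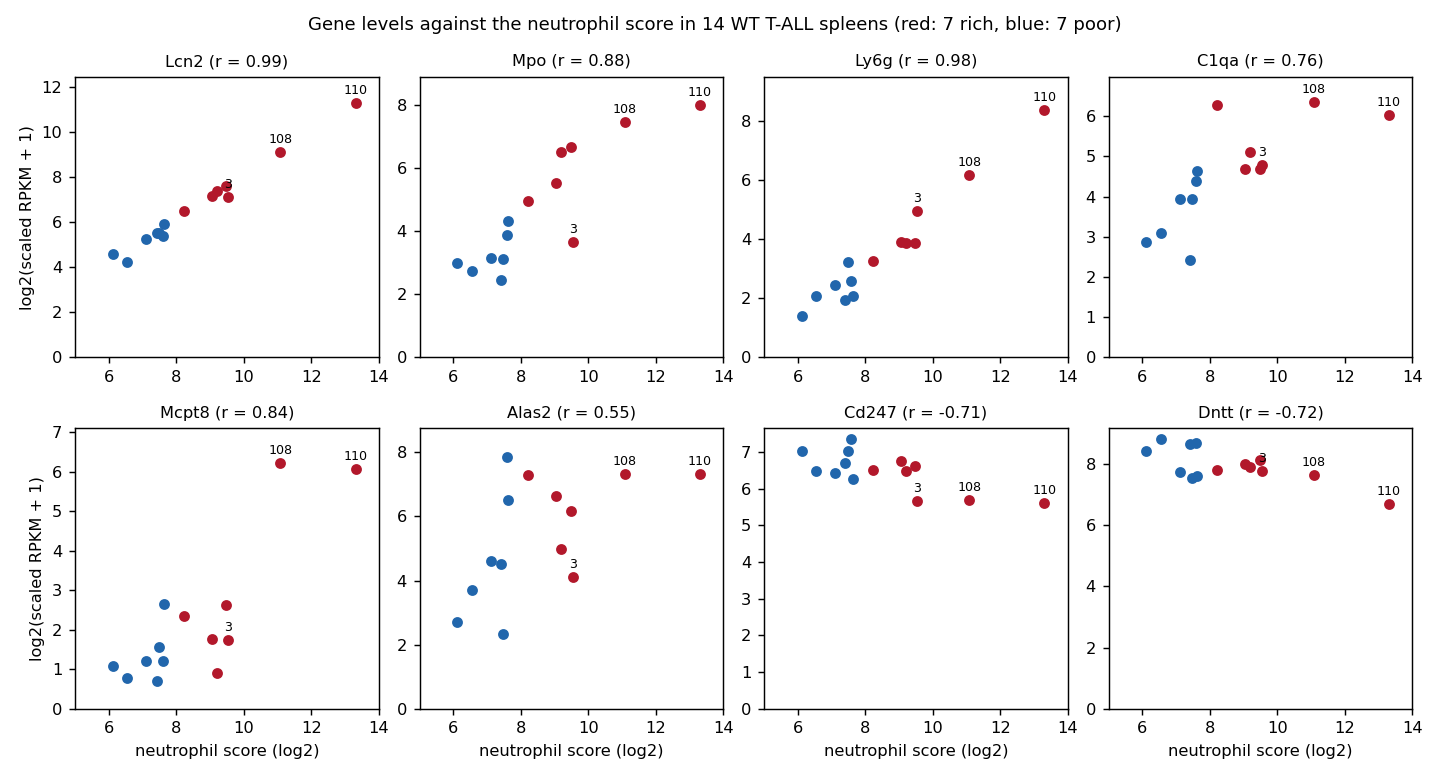
Level of 8 genes in log2(scaled RPKM + 1) against the neutrophil score in the 14 WT T-ALL libraries (red, 7 rich and blue, 7 poor), with Pearson's r. Lcn2 and Ly6g lie close to a line, Mpo drops in library 3, Mcpt8 stands at 6.08 and 6.22 in libraries 110 and 108 and at 2.66 or less in the others, and Cd247 and Dntt are lowest or among the lowest in library 110.

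Macrophage genes were also higher in the neutrophil-rich spleens. C1qa, a chain of complement C1q made by tissue macrophages, was at 6.35 in library 108, 6.28 in 202, 6.03 in 110, 5.12 in 128, 4.79 in library 3, 4.70 in 126 and 4.69 in 14. In the poor group it was at 4.65 in 111, 4.40 in 48, 3.94 in both 7 and 120, 3.08 in 4, 2.87 in 5 and 2.42 in 36. C1qa and C1qc were the list members whose groups did not overlap, by a narrow margin. The order differed from that of the score, since library 202, the lowest of the rich group, was second for C1qa. The slope of C1qa was 0.48 ± 0.11 (SE; adjusted p = 0.00971 in limma), and without libraries 108 and 110 it was 0.62 (adjusted p = 0.369). Spic and Hmox1, a factor and an enzyme of red pulp macrophages that recycle heme, had slopes of 0.33 and 0.44 (limma adjusted p = 0.0299 and 0.012), and Slc40a1, the iron exporter ferroportin, one of 0.44 (0.00341); without libraries 108 and 110 their slopes were 0.32, 0.54 and 0.41. Of 11 tested macrophage genes, 10 were called rising, beside 6.16% of all genes, and the median difference was 1.51. All 11 kept a positive slope without libraries 108 and 110, where none was called.

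Monocyte genes gave a mixed picture. Ly6c2 and Ccr2, which mark inflammatory monocytes, had slopes of 0.75 ± 0.10 and 0.60 ± 0.11 (SE; limma adjusted p = 0.000123 and 0.00115), and Csf1r, the macrophage colony-stimulating factor receptor, one of 0.47 ± 0.11 (0.0108). F13a1 and Vcan were not called, with slopes of 0.22 and 0.19. Ly6c2 was at 4.46 in the poor library 48, above 5 of the 7 rich libraries, and Csf1r at 4.81 in library 202. Of the 5 tested genes 3 were called rising, beside 6.16% of all genes, and none of the 4 tested without libraries 108 and 110. Of these 4, 3 had a positive slope there. Beside the same 6.16%, 1 of 3 dendritic-cell genes was called, Itgax (slope 0.32, limma adjusted p = 0.0332), whose value in library 110 was 3.69 and whose slope without 108 and 110 was 0.09. Of the 5 MHC class II genes 1 was called beside that share, H2-Aa, with a slope of 0.43 (limma adjusted p = 0.0469) that came to 0.24 without the 2 libraries.

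The eosinophil genes Prg2 and Epx and the basophil genes Mcpt8 and Prss34 had their highest levels in libraries 110 and 108. Prg2, eosinophil major basic protein, was at 8.40 in library 110 and 4.64 in 108, at 0.49 to 4.07 in the other rich libraries and at 0.00 to 2.79 in the poor ones. Epx, eosinophil peroxidase, was at 5.63 in 110, 2.18 in 108 and at most 1.02 elsewhere. Mcpt8 and Prss34, proteases of basophils, were at 6.08 and 5.18 in library 110 and at 6.22 and 6.05 in 108, against at most 2.66 and 2.81 in the other 12. Cpa3, a mast-cell and basophil carboxypeptidase, was highest in library 126, at 6.90. Of 6 tested genes 5 were called rising with the score, beside 6.16% of all genes, with a median slope of 0.69, and none of the 4 tested without libraries 108 and 110. Epx stayed under 1 scaled RPKM in each poor library and entered the test through the rich group. The correlation of the list mean with the score was r = 0.89 over 14 libraries and 0.60 over 12.

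No platelet, erythroid, B-cell or stromal gene was called, beside 6.16% of all genes called rising, and in lists this short 0 calls is near that share. Pf4, platelet factor 4, was highest in library 108 (6.31) and was at 3.49 to 4.53 in the other rich libraries and 1.47 to 3.96 in the poor ones, with a slope of 0.43 ± 0.14 (SE; limma adjusted p = 0.0984; 0.69 without 108 and 110, adjusted p = 0.211), and 0 of 6 tested platelet genes passed. All 8 erythroid genes had a higher mean in the rich group, by a median of 0.57, and 0 of 8 passed. Alas2, the erythroid heme synthesis enzyme, was at 4.11 to 7.32 in the rich and 2.35 to 7.86 in the poor libraries. The single tested B-cell gene, Cd79b, and the 2 tested stromal genes, Pecam1 and Pdgfrb, were not called. Pdgfrb was at 2.08 to 6.58 in the 14 libraries and its correlation with the score was r = 0.045, and 0.30 without 108 and 110.

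**Figure D5:**
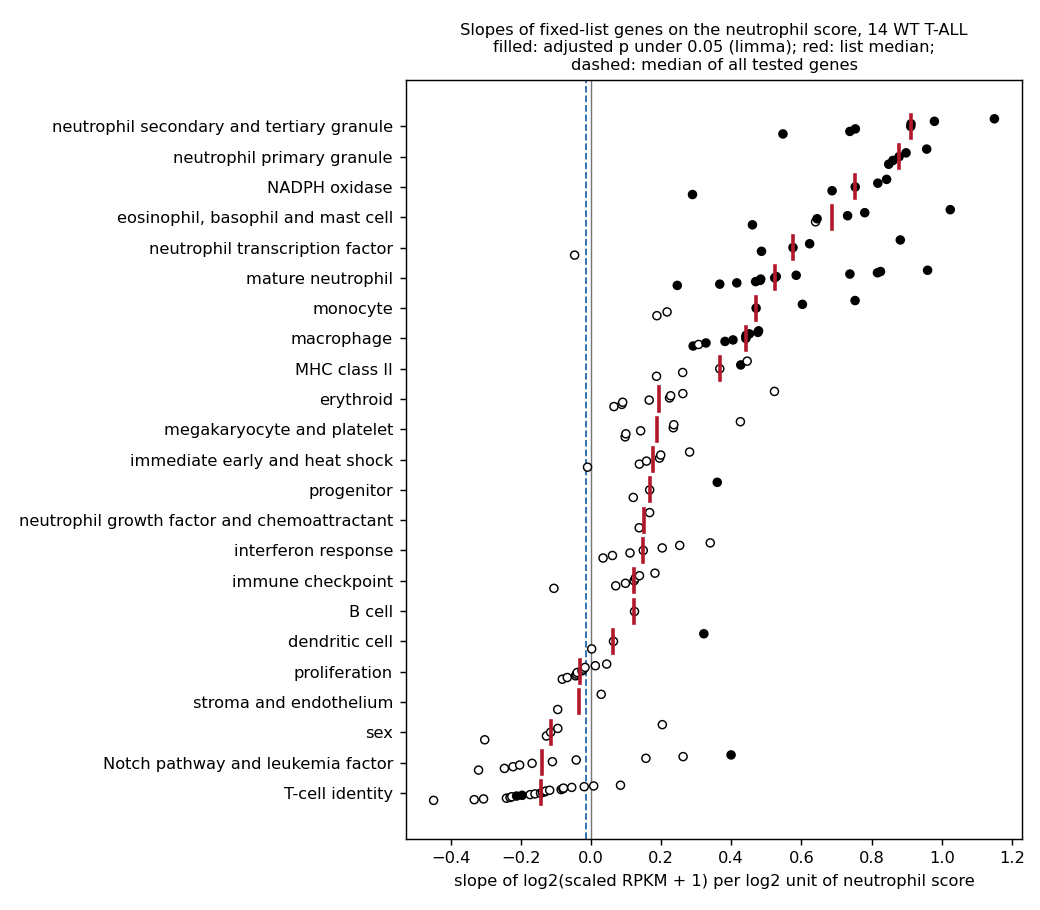
Slope on the neutrophil score of each tested gene of the 23 lists, in log2(scaled RPKM + 1) per log2 unit of score, over the 14 WT T-ALL libraries. Filled points had an adjusted p under 0.05 in limma, red bars are list medians and the dashed line is the median of all 11471 tested genes (-0.0155). Neutrophil lists and the eosinophil, monocyte, macrophage and MHC class II lists lie to the right. Furthest to the left lie the T-cell identity list (median -0.14), the Notch pathway and leukemia factor list (-0.14) and the sex list (-0.12).

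Of 22 tested T-cell identity genes 2 were called falling with the score, beside 0.471% of all genes, and 20 were not called, and the median difference between the groups was -0.24. Cd247, the zeta chain of the T-cell receptor complex, was at 5.62 in library 110, 5.70 in 108, 5.66 in library 3, 6.49 to 6.77 in the other rich libraries and 6.26 to 7.37 in the poor ones, with a slope of -0.20 ± 0.05 (SE; limma adjusted p = 0.0393). Dntt, the terminal transferase of immature lymphocytes, was at 6.68 in library 110, 7.64 to 8.11 in the other rich libraries and 7.55 to 8.82 in the poor ones, with a slope of -0.21 ± 0.06 (0.0340). Neither was called without libraries 108 and 110, where the slopes were -0.16 and -0.16. The receptor chains Cd3d, Cd3e and Cd3g had slopes between -0.08 and 0.08 and did not pass. Cd4 was lower in the rich group by 1.33, at 1.90 to 5.35 against 3.54 to 6.30, but did not pass (limma adjusted p = 0.456 for its slope). The list mean was lowest in library 110, at 5.75 against 6.26 to 7.25 in the other 13. The correlation of the list mean with the score was r = -0.68 over 14 libraries and -0.23 over 12.

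Of the 10 tested genes of the Notch pathway and leukemia factors 1 was called rising, beside 6.16% of all genes, a share too near to read as a result about the list. Notch1 was at 5.75 to 7.37 in the rich and 6.39 to 7.44 in the poor group, with a slope of -0.17 ± 0.06 (SE; limma adjusted p = 0.112) that came to -0.098 without libraries 108 and 110, and Myc, Hes1, Dtx1, Nrarp, Il2ra and Notch3 were likewise not called. Lyl1, a helix-loop-helix factor active in T-ALL and in myeloid progenitors, was called rising (slope 0.40 ± 0.07, SE; limma adjusted p = 0.000674), at 4.68 in library 110 and 4.07 in 108 but at 3.13 in the poor library 7. Tal1 and Lmo2 had slopes of 0.16 and 0.26 and did not pass. Without libraries 108 and 110 the slope of Lyl1 was 0.26 and was not called. Of the 3 tested progenitor genes Gata2 was called (slope 0.36, limma adjusted p = 0.00172), at 2.91 and 2.67 in libraries 110 and 108 and at most 1.49 elsewhere. Gata2 could not be tested without these 2 libraries, where it did not pass the filter.

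None of the 10 tested proliferation genes was called in limma, at an adjusted p of 0.531 or more, beside 6.16% of all genes called rising and 0.471% falling, and their slopes lay between -0.082 (Mki67) and 0.045 (Cdk1). The interferon list (0 of 7 tested), the immune checkpoint list (0 of 7), the immediate early and heat shock list (0 of 6) and the sex-linked genes (0 of 5) gave no call either. With 5 to 10 tested members, 0 calls is near the share of all genes and is not read as a result about these lists. Cd274, which encodes PD-L1, was highest in the rich library 110 (3.53), and lower in the other 6 rich libraries (1.54 to 2.00) than in 4 of the 7 poor ones. The checkpoint list mean was 3.37 in library 110 and 1.47 to 2.81 in the other 13.

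The 54 genes that fell with the score had shallow slopes, between -0.761 and -0.112 with a median of -0.185, against a median of 0.367 for the 707 that rose. The 4 given next were chosen after their values were seen. Camk4, a calcium-dependent kinase of T cells, was at 3.83 to 5.27 in the rich and 4.64 to 5.72 in the poor group (slope -0.25 ± 0.05, SE; limma adjusted p = 0.00419). Ikzf3, the Ikaros family factor Aiolos, had a slope of -0.22 (limma adjusted p = 0.0346), Tcf12, an E protein, one of -0.22 (0.0165) and Plcg1, the phospholipase of T-cell receptor signaling, one of -0.18 (0.0311). Without libraries 108 and 110 the 4 slopes were -0.30 (Camk4), -0.21 (Ikzf3), -0.18 (Tcf12) and -0.14 (Plcg1), and none was called. By the fixed rule, the genes with the lowest correlation were Map3k7, Zfp438, Dnajc18, Rfx7 and Usp34 (r = -0.89 to -0.86), and the groups overlapped in each. Without libraries 108 and 110 their r was -0.77, -0.73, -0.57, -0.79 and -0.80 in the same order. All but Map3k7 (limma adjusted p = 0.0886 for its slope) were among the 54. Fip1l1, a factor of mRNA polyadenylation, was at 4.86 to 5.23 in the rich and 5.26 to 5.92 in the poor libraries, and Ankrd17 at 4.30 to 4.63 against 4.72 to 4.99. These differences, -0.34 and -0.31, were small and had limma adjusted p of 0.451 and 0.419 in the split. Neither gene was among the 54 (limma adjusted p = 0.0677 and 0.264 for the slope). Il2rg, which the host lacks by its genotype and which was named after its value was seen, was at 6.05 to 6.89 and 5.96 to 7.29 (r = -0.29, permutation p = 0.319, rho = -0.32, permutation p = 0.262, and r = -0.28 without the 2 libraries).

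Of the 37 genes called also without libraries 108 and 110, 11 belonged to the neutrophil lists and 26 to no list. The 5 of these given here were chosen after their values were seen. Alox5ap, which presents arachidonic acid to 5-lipoxygenase for leukotriene synthesis, was at 8.34 in library 110, 6.36 in 108, 4.50 to 5.86 in the other rich libraries and 2.48 to 4.54 in the poor ones. Ltb4r1, the receptor for leukotriene B4, was at 5.85, 3.77 and 1.56 to 3.11 in the same order and at 0.52 to 1.68 in the poor group. Pygl, a glycogen phosphorylase, was at 3.28 to 7.24 in the rich and 1.32 to 3.05 in the poor libraries, without overlap, and Hk3, the hexokinase of phagocytes, at 1.79 to 5.95 and 0.74 to 1.80. Lyz2, a lysozyme of neutrophils, monocytes and macrophages, was among the most abundant of them, at 7.54 to 11.63 against 4.91 to 7.65. The slopes of these 5 genes with 14 libraries were between 0.71 (Hk3) and 0.87 (Lyz2), and without 108 and 110 between 0.52 (Hk3) and 0.82 (Lyz2).

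Apoe, apolipoprotein E, a product of macrophages, was chosen after its values were seen: it was at 6.76 to 8.19 in the rich and 4.83 to 6.59 in the poor libraries, without overlap, yet its correlation with the score was 0.59 (0.73 without 108 and 110) and its slope was not called (limma adjusted p = 0.126). In the split it shared the smallest adjusted p with Prtn3 (0.0667). Its highest value was in library 202 and the lowest of the rich group in library 110. Cd63, a granule membrane protein, Olfm4, a marker of a neutrophil subset, and the Fc receptor genes Fcgr3 and Fcgr4, also chosen so, did not overlap either and followed the score more closely, with r of 0.92 to 0.95, and 0.76 to 0.83 without 108 and 110.

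Library properties were compared in the same way, as 5 relations with p adjusted over them. The number of genes at 1 scaled RPKM or more was 10832 ± 128 (SD, n = 7) in the rich and 10419 ± 231 in the poor group (two-sided exact permutation p = 0.00175, adjusted 0.00874, smallest possible 0.000583). It correlated with the score at r = 0.82 (permutation p = 0.00013, adjusted 0.00065) and rho = 0.88 (6e-05, adjusted 0.0003), and at r = 0.79 without libraries 108 and 110. The count includes genes that rose with the score, among them those that passed the filter only through libraries 108 and 110. It is therefore not independent of the ranking. Depth of the libraries could not be set beside the count, and the part of depth in the results was not tested. The share of mitochondrially encoded genes was 15.2% ± 2.88 and 18.7% ± 12.6 of the summed scaled RPKM (exact p = 0.682). The higher mean of the poor group rested on library 7: without it the difference, rich minus poor, went from -3.56 to 0.974 percentage points (exact p = 0.633), and the medians were 14.9% and 13.6%. The relation to the score over all 14 had r = -0.13 and rho = 0.0066 (permutation p = 0.617 and 0.987) and r = -0.15 without the 2 libraries. Hemoglobin genes took 2.37% ± 1.46 and 1.51% ± 2.07 (exact p = 0.388), with r = 0.38 and rho = 0.51 (permutation p = 0.173 and 0.0670), and r = 0.15 without the 2. The erythroid list mean (exact p = 0.300, r = 0.38, rho = 0.41, permutation p = 0.178 and 0.147, r = 0.37 without the 2) and the ribosomal protein mean (exact p = 0.323, r = 0.22, rho = 0.42, permutation p = 0.443 and 0.133, r = 0.47 without the 2) did not pass either. The sources used here name no batch, so no value within a batch could be given.

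The ranking did not use the Notch3 KO T-ALL spleens. Their score was 9.41, 4.41 and 9.76, once below every WT T-ALL library and never as high as in library 108, and Elane amounted to 0.518%, 1.24% and 1.61% of S100a8 in scaled RPKM. Lcn2 was at 7.29, 2.36 and 7.38, inside the rich range in the libraries with a high score and below each WT T-ALL library in the other. In the thymus controls the score was 3.18 to 5.70 and Lcn2 0.61 to 3.52.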

How the data were processed

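The authors deposited 1 table of 24475 genes by 23 libraries in log2 units, which the values show to be log2(scaled RPKM + 1), with the 75th percentile at 3.458 to 3.459 in each library. By the study's methods, total RNA was made into stranded mRNA libraries, sequenced as paired-end reads and aligned by the authors to the mm10 transcriptome with OSA in ArrayStudio, whose versions are not given in the sources used here. Counts were not used. The study's methods give only an approximate read number for all samples alike, so the depth of a single library is unknown. Of the gene IDs, 99.59% matched RefSeq (GRCm38.p6), which gave coordinates and restored 27 symbols stored as dates.

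The 14 WT T-ALL libraries were ranked by the mean log2 value of the 5 markers and cut into 7 and 7. Genes at 1 scaled RPKM or more in at least 3 of the 14 libraries, markers left out, were fitted with limma 3.58.1 in R 4.3.3 (trend and robust), for the split and for the score as a numeric term, with Benjamini-Hochberg adjustment over all 11471 genes and calls at an adjusted p under 0.05. The fit was tested on simulated data. Library measures were compared by exact permutation over all 3432 splits and by 100000 permutations for r and rho, two-sided, with Python 3.11.15, SciPy 1.17.1 and NumPy 2.4.6.

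The markers, the 23 gene lists and the tests were chosen with earlier results of these data known. Named genes were the 10 called genes with the largest change in each direction among all genes and among genes of no list, with a mean of at least 5 scaled RPKM in the higher group, places without a call being filled by non-overlapping genes, plus the 5 highest and 5 lowest r. The rule passed over genes of antigen receptors, globins and ribosomal proteins and gene models without a proper name. Genes of a list could be named as part of it, and others are said to be chosen after their values were seen. Alternatives were an offset of 0.1, no filter or a filter at 5, quantile normalization, erythroid or mitochondrial covariates, limma without trend, 5 against 5 libraries, ranking by linear values, the rank of the score, and leaving out each library. Values of 2 list genes are not reported here.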

Additional observations from a re-analysis of the deposited data

Results flagged for a closer look

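In groups of 7 libraries, 64 values were examined for a library far from the others of its group, and 4 stood out. Chance alone flags about 1 in 20 groups. In the neutrophil-poor group WT T-ALL 7 had 45.89% of its summed scaled RPKM in mitochondrially encoded genes, against 10.3% to 20.9% in the others. WT T-ALL 48 had the highest hemoglobin share of the poor group, 5.923%, against 0.0874% to 2.27% in the others. In the neutrophil-rich group WT T-ALL 14 had the highest mean of ribosomal protein genes, 11.31 on the log2 scale, against 10.04 to 10.40. Fip1l1 was lowest in WT T-ALL 110 among the rich libraries, at 4.863 against 5.10 to 5.23.

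The neutrophil score was also high in libraries that the comparison did not use. It was 9.411 in Notch3 KO T-ALL 1 and 9.764 in Notch3 KO T-ALL 3, inside the range of the neutrophil-rich group (8.23 to 13.30). Notch3 KO T-ALL 2 stood at 4.41. The highest thymus control was at 5.70, below every WT T-ALL library (6.12 or more).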

How the results depend on the processing

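The split called 0 genes in the fit as reported (935 at an unadjusted p under 0.05), 7 when 0.1 was added before the log in place of 1, 4 when genes had to reach 5 scaled RPKM, and 12 without WT T-ALL 108 and 110 together, an alternative chosen after seeing the data. Leaving out 1 library at a time gave 0 to 12 calls, with 7 without WT T-ALL 3, 12 without 110 and 2 without 111. Every such call was higher in the neutrophil-rich group. The continuous score called 761 genes as reported, 1318 without a filter on low values (1249 rising, 69 falling), 312 with a filter at 5 (291 and 21), 381 with the rank in place of the score (366 and 15) and 37 without 108 and 110 (37 and 0). Leaving out 1 library at a time gave 187 to 799 calls, the lowest without 110. The hemoglobin difference between the groups was 1.768 percentage points with 5 against 5 libraries (exact p = 0.0397). It was 0.470 to 1.60 when 1 library was left out, the highest without WT T-ALL 48 (exact p = 0.0326). Both p were under 0.05 before adjustment over the 5 measures, which was not made for these alternatives. The difference in the mitochondrial share was -3.56 percentage points as reported and -4.965 to 0.9736 when 1 library was left out, above 0 without WT T-ALL 7 alone. Of 527 values of named genes under an alternative, 26 passed the threshold of the split that had not done so in the fit as reported, and none changed direction. No paired analysis was possible because both groups are parts of 1 group of the labels and share no replicate number.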
